A study of Mus musculus with 8 samples.

Results

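Collagen chains and the enzymes that modify and crosslink them were examined in newborn mouse lung, across 55 genes measured by 93 array features, out of 20842 named genes on the array. The members were the features whose platform symbol reads Col, a number, a and a number, together with 12 genes of collagen maturation (the lysyl oxidases Lox and Loxl1 to Loxl4, the lysyl hydroxylases Plod1 to Plod3, the prolyl 3-hydroxylases P3h1 and P3h2, Serpinh1 and Pcolce). Of the 93 features, 89 matched by platform symbol and 4 through updated symbols: Lepre1 is now P3h1 (2 features), Emid2 is Col26a1 and Gm7455 is Col6a5. Leprel1 is now P3h2. Col6a3 and Col21a1 were not named on the array and were not analysed here. The rule that picks them reads gene symbols and no measured value. They fell into fibrillar (8 genes), basement membrane (9), FACIT (6), cartilage (7) and other collagens (13), plus the 12 maturation genes. The cartilage group includes Col2a1, Col11a1 and Col11a2, which are fibrillar by type, and the type IX chains, which are FACIT chains by type. Counts for the fibrillar and FACIT groups leave these out.

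Whole-lung RNA came from C57Bl/6J pups kept in a chamber with 20% oxygen from postnatal day 0 to day 3. The TG_normoxia group (TG) holds 4 lung samples labelled Fgf10 +/-, that is, with 1 of 2 copies of fibroblast growth factor 10 altered. The WT_normoxia group (WT) holds 4 lung samples labelled wild-type. Both groups share strain, age and oxygen level. The labels do not say how the allele was made, although the group's short name reads TG, and give neither sex nor litter. They call the 4 samples of a group independent without saying whether each is 1 animal, so p-values measure the spread between these samples, which may be technical.

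Collagens are triple helices of 3 chains rich in glycine and proline. Fibrillar types I, III and V form the tensile fibres of airway walls, vessels and alveolar septa; type IV forms the sheet-like network under epithelium and endothelium; FACIT chains (fibril-associated collagens with interrupted triple helices) sit on the fibril surface. In the endoplasmic reticulum prolyl and lysyl residues are hydroxylated and the chaperone HSP47, encoded by Serpinh1, holds the folded helix. Outside the cell the propeptides of fibrillar types are cut off and lysyl oxidases join neighbouring molecules by covalent crosslinks. In newborn lung the fibrillar collagens are laid down mainly by fibroblasts and smooth muscle cells while alveoli form.

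The values are log2 signals brought to a common distribution on all 8 arrays, with a median of 3.47 over all features and a maximum of 15.99. A log2 difference is always TG minus WT, so a difference of 1 means a doubling of the signal. The targeted gene did not check the labels. Fgf10 read 7.55, 7.96, 7.96 and 8.33 in TG replicates 1 to 4, against 7.49, 7.81, 6.89 and 7.64 in WT replicates 1 to 4, a difference of 0.49 (SE 0.24, limma adjusted p = 0.507). The position of its probe relative to the altered sequence is unknown here, so the signal cannot check the genotype, and TG and WT stand throughout for the libraries that carry those labels. WT replicate 4 stood apart from the other 7 libraries in cartilage, skeletal muscle and fat genes, so its value is given apart for the genes described in full, and their differences and the member groups' medians are also given without it. The log2 summed signal of 15 skeletal muscle markers was 9.55, 9.51, 9.64 and 9.56 in TG libraries, 9.98, 10.04 and 9.92 in WT replicates 1 to 3, and 12.99 in WT replicate 4. For 10 fat markers it was 8.28 to 8.36 in TG libraries, 8.31 to 8.77 in WT replicates 1 to 3, and 10.37 in WT replicate 4.

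No member passed the test of the study's 2 groups. In limma 0 of 55 members had an adjusted p under 0.05, as did 0 of all 20842 genes (0.00%). With a variance trend and robust estimation 2 members passed, Col1a1 and Loxl2, where 1.99% of all genes did. At an unadjusted p under 0.05 there were 8 members, where 11.0% of all genes lay under that value. With higher means in TG libraries these were Col1a1, Col1a2, Col3a1, Col12a1, Col25a1 and Loxl2 (4.74% of all genes), and with lower means Col24a1 and Col4a3 (6.29% of all genes). The 4 TG values all lay above the 4 WT values for 4 members, Col1a2, Col25a1, Loxl2 and Serpinh1, where 2.99% of all genes did so. They all lay below for 1 member, Col4a3, where 4.40% of all genes did so. Of the 55 members 30 had a higher mean in TG libraries, beside 49.8% of all genes. The median difference over members was 0.03, and over all genes -0.00.

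Without WT replicate 4, 37 of the 55 members had a higher mean in TG libraries, beside 49.8% of all genes, and the median difference was 0.14. Groups did not overlap in the higher direction for 11 members, where 6.00% of all genes did so, and in the lower direction for 2, where 7.68% did so. The 11 were Col1a1, Col1a2, Col3a1, Col5a3, Col12a1, Col14a1, Col25a1, Loxl1, Loxl2, Pcolce and Serpinh1, and the 2 were Col4a3 and Col23a1. An unadjusted p under 0.05 was reached by 13 members, where 12.8% of all genes reached it; 11 of them had higher TG means (5.51% of all genes) and 2, Col24a1 and Col4a3, had lower ones (7.24%). Again 0 members had an adjusted p under 0.05, and 1 of all genes did (0.00480%).

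**Figure D1:**
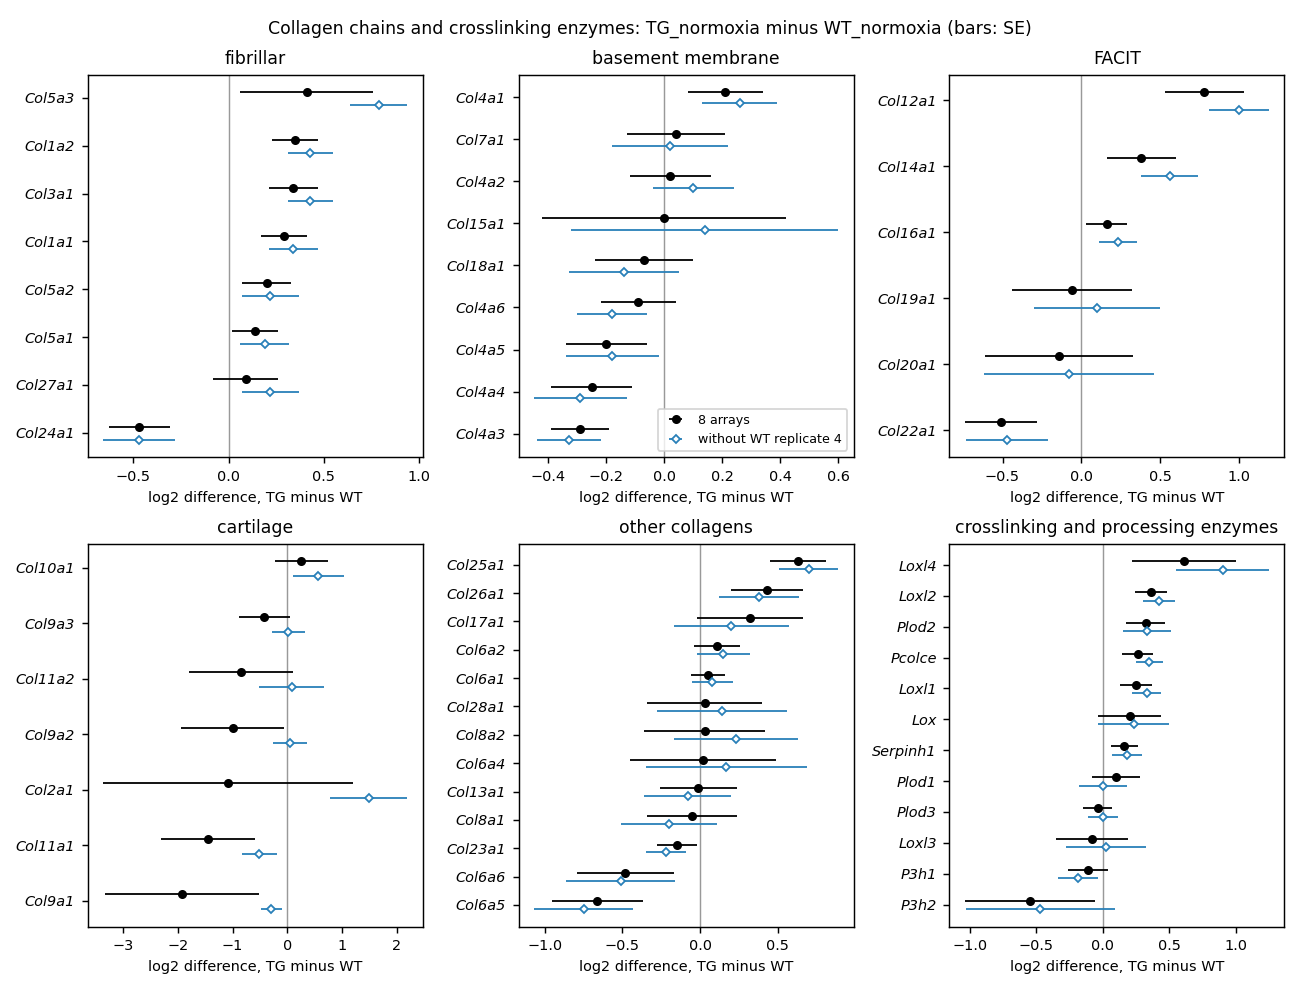
Log2 difference, TG minus WT, of each of the 55 members (horizontal axis) in 6 panels by member group, with bars of 1 standard error from limma. Black circles use all 8 arrays and open blue diamonds leave out WT replicate 4. Col2a1 stands at -1.08 with all arrays and at 1.49 without that library. Within the fibrillar group Col5a3 moves most, at 0.41 and 0.79.

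The fibrillar group, without the fibrillar chains counted as cartilage, had higher means in TG libraries for 7 of 8 genes. Its median difference was 0.25 (0.28 without WT replicate 4), and 0 of 8 passed. Type I is the main tensile collagen. Its chain Col1a1 read 13.74, 13.69, 13.38 and 13.56 in TG libraries, against 13.29, 13.29 and 13.19 in WT replicates 1 to 3 and 13.43 in WT replicate 4. Only WT replicate 4 reached into the TG range, just above the lowest TG library, replicate 3. The means were 13.59 ± 0.16 in TG and 13.30 ± 0.10 in WT libraries (SD, n = 4 each), a 1.23-fold ratio and a log2 difference of 0.29 (SE 0.12, limma adjusted p = 0.412), and 0.34 without WT replicate 4. Its partner Col1a2 read 15.54, 15.44, 15.35 and 15.51 in TG libraries, against 14.98, 15.19 and 14.91 in WT replicates 1 to 3 and 15.33 in WT replicate 4. The groups were separate, with WT replicate 4 the nearest to the TG libraries. The difference was 0.35 (SE 0.12, 1.28-fold, limma adjusted p = 0.346). Its exact two-sided permutation p was 0.0286, the smallest that 70 assignments of 4 against 4 can give. Every gene with separate groups has that permutation p, so here and below it adds nothing to the separation. The Col1a2 difference was 0.43 without WT replicate 4 (limma adjusted p = 0.210). These signals lie near the top of the array scale, where differences may be compressed by an amount the files do not show.

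Type III collagen accompanies type I in distensible tissue. Col3a1 read 13.92, 13.75, 13.66 and 13.79 in TG libraries, against 13.23, 13.49 and 13.32 in WT replicates 1 to 3 and 13.72 in WT replicate 4. WT replicate 4 again lay inside the TG range and the other 3 WT libraries below it. The difference was 0.34 (SE 0.13, exact permutation p = 0.0571, limma adjusted p = 0.407), and 0.43 without that library (limma adjusted p = 0.213). The within-array gap between Col1a1 and Col1a2 was the same in both groups within the spread of the libraries, at -1.86 on average in TG and -1.80 in WT libraries.

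Type V chains start fibrils and set their diameter. Col5a1 differed by 0.14 (SE 0.12) and Col5a2, which lies beside Col3a1 on chromosome 1, by 0.20 (SE 0.13), with overlapping groups. Col5a3 read 5.29, 5.08, 5.10 and 5.09 in TG libraries, against 4.25, 4.66 and 4.14 in WT replicates 1 to 3 and 5.87 in WT replicate 4. That single library was the highest of all 8 while the other 3 WT libraries lay below every TG library. The Col5a3 difference was therefore 0.41 with all arrays (limma adjusted p = 0.737) and 0.79 without WT replicate 4 (SE 0.15, limma adjusted p = 0.138).

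Col24a1 and Col27a1 belong to a separate branch of fibrillar collagens. Within the fibrillar group, Col24a1 was the 1 chain with a lower mean in TG libraries. Col2a1, Col11a1 and Col11a2, counted as cartilage, also had lower TG means with all arrays and are described below. Col24a1 read 4.48, 4.43, 4.96 and 4.45 in TG libraries, against 4.99, 5.31 and 4.84 in WT replicates 1 to 3 and 5.06 in WT replicate 4. TG replicate 3 was the TG library that reached the WT range. The difference was -0.47 (SE 0.16, exact permutation p = 0.0571, limma adjusted p = 0.336), and it was -0.47 as well without WT replicate 4. Col27a1 differed by 0.09 (SE 0.17).

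The 120 bases before the annotated start are shown for Col1a2 and Col3a1, as fibrillar chains with higher TG means, for Serpinh1, the collagen chaperone with separate groups, and for Col24a1, which differed the other way. They are given 5′ to 3′ on the gene's strand from RefSeq, build GRCm38.p6; of 40 members with a promoter window, 14 had these bases outside all gene records. Capitals mark exact matches, searched on both strands, to the 3 motifs. The first is the CCAAT box, spelled as in its name. The next is the TATA box, spelled TATAAA. The last is an Sp1-type GC box, spelled GGGCGG.
Col1a2 (chr6:4505498-4505617, plus strand): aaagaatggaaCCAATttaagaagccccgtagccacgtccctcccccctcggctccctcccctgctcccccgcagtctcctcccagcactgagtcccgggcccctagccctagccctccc
Col3a1 (chr1:45311418-45311537, plus strand): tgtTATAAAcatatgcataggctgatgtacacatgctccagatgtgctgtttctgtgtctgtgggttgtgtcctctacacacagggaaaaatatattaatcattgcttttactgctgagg
Serpinh1 (chr7:99353240-99353359, minus strand): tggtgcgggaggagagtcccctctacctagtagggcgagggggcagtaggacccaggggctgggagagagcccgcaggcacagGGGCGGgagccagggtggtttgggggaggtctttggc
Col24a1 (chr3:145292352-145292471, plus strand): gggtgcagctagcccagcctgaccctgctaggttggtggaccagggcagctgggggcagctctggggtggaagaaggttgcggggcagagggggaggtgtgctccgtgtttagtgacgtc
Each of the first 3 held 1 match, each to a different motif, and the Col24a1 stretch held 0. Over all 32851 promoter windows, the same 120 bases held CCAAT in 21.3%, TATAAA in 6.34% and GGGCGG in 26.5%. The matches are a description of these letters.

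**Figure D2:**
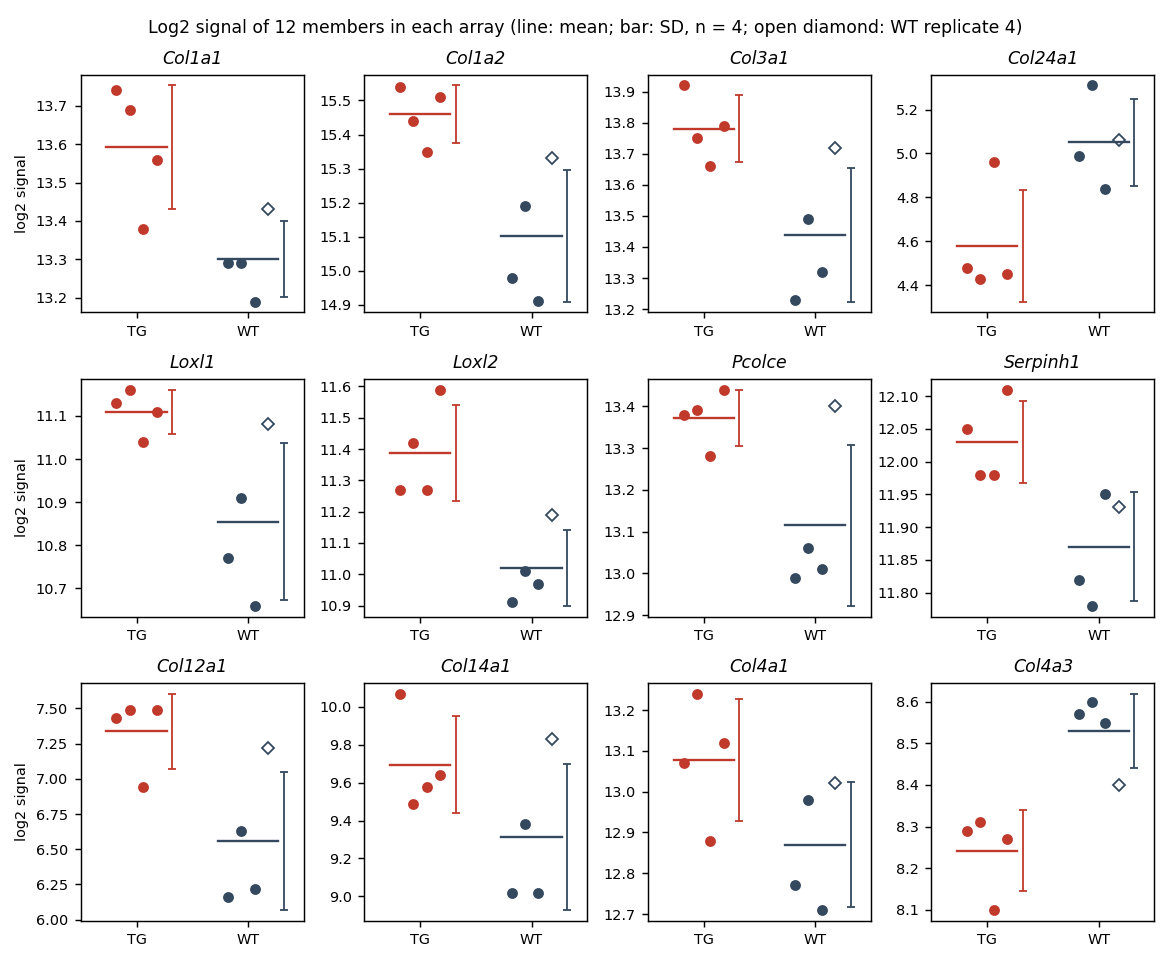
Log2 signal (vertical axes, one scale per gene) of 12 members in the 4 TG and 4 WT arrays, with a line at each mean and a bar of 1 SD (n = 4). WT replicate 4, the open diamond, is the WT array nearest to or inside the TG range for Col1a1, Col1a2, Col3a1, Loxl1, Loxl2, Pcolce, Col12a1 and Col14a1, and the lowest WT array for Col4a3.

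Among the FACIT chains, the 3 with signals well above the array median, Col12a1, Col14a1 and Col16a1, had higher means in TG libraries. Col19a1, Col20a1 and Col22a1 had lower ones, and 0 of 6 passed. Col19a1 and Col20a1 differed by less than their SE. Without WT replicate 4 the counts were 4 higher and 2 lower, with Col19a1 at 0.10 (SE 0.40). The group median of 0.05 stood at 0.17 without WT replicate 4, and at -0.09 without TG replicate 4 or -0.08 without WT replicate 3. Col12a1, which decorates type I fibrils under load, read 7.43, 7.49, 6.94 and 7.49 in TG libraries, against 6.16, 6.63 and 6.22 in WT replicates 1 to 3 and 7.22 in WT replicate 4. TG replicate 3 lay below WT replicate 4, and the other 3 TG libraries lay above every WT library. The difference of 0.78 (SE 0.25, 1.72-fold) was the largest positive one among the 55 members, with an exact permutation p of 0.0571 and a limma adjusted p of 0.305. Without WT replicate 4 it was 1.00 (SE 0.19, limma adjusted p = 0.133).

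Col14a1, a fibril-surface chain that limits fibril fusion, read 10.07, 9.49, 9.58 and 9.64 in TG libraries, against 9.02, 9.38 and 9.02 in WT replicates 1 to 3 and 9.83 in WT replicate 4. The difference was 0.38 (SE 0.22, limma adjusted p = 0.579), and 0.56 without WT replicate 4, when the groups were separate. Col16a1, a FACIT of small fibrils and cell contacts, read 12.13, 11.95, 11.84 and 12.06 in TG libraries, against 11.88, 11.71 and 11.70 in WT replicates 1 to 3 and 12.07 in WT replicate 4. The groups overlapped, with a difference of 0.16 (SE 0.13, limma adjusted p = 0.713) and of 0.23 without WT replicate 4. All 4 Col16a1 features had a higher mean in TG libraries, by 0.16 to 0.26, but they read the same RNAs and are not independent. The dimmest features, with mean signals of 3.55 and 2.93, had SE of 0.41 and 0.62. The last of these read 4.88 in TG replicate 1 and at most 2.85 in the other TG libraries.

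Col22a1, a chain of tissue junctions such as those between muscle and tendon, read 3.68, 4.26, 4.04 and 4.35 in TG libraries, against 4.83, 4.82 and 4.02 in WT replicates 1 to 3 and 4.72 in WT replicate 4. WT replicate 3 lay within the TG range. The difference was -0.51 (SE 0.23, limma adjusted p = 0.463), and -0.47 without WT replicate 4. Col19a1, with a mean below the array median, and Col20a1 had means 0.06 and 0.14 lower in TG libraries, each with an SE of 0.38 or more.

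Basement membrane chains differed in both directions, with 3 of 9 higher and 6 of 9 lower in mean in TG libraries, and 0 of 9 passed. The median difference was -0.07 with 1 feature per gene and -0.14 without WT replicate 4. It stayed between -0.07 and -0.05 under other scalings, which could move it little because the arrays already share the same distribution. The median was 0.02 with the average over each gene's features and 0.11 with every feature on its own, where Col4a1 counts 10 times. Type IV chains assemble into 3 networks: the ubiquitous one of Col4a1 and Col4a2, one of Col4a3, Col4a4 and Col4a5 found in the alveolar wall and the kidney glomerulus, and one with Col4a5 and Col4a6. Col4a1 read 13.07, 13.24, 12.88 and 13.12 in TG libraries, against 12.77, 12.98 and 12.71 in WT replicates 1 to 3 and 13.02 in WT replicate 4. The groups overlapped, with a difference of 0.21 (SE 0.13, limma adjusted p = 0.607), and 0.26 without WT replicate 4. All 10 of its features had a higher mean in TG libraries, by 0.12 to 0.21; they read the same 8 RNAs and are not independent. Col4a2 read 12.05, 12.19, 11.99 and 12.25 in TG libraries, against 11.93, 12.26 and 11.87 in WT replicates 1 to 3 and 12.32 in WT replicate 4, a difference of 0.02 (SE 0.14, 95% interval -0.30 to 0.35), and 0.10 without WT replicate 4.

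Col4a3 was the only one of the 55 members whose 4 TG values all lay below the 4 WT values. It read 8.29, 8.31, 8.10 and 8.27 in TG libraries, against 8.57, 8.6 and 8.55 in WT replicates 1 to 3 and 8.40 in WT replicate 4. WT replicate 4 was the WT library nearest to the TG range. The means were 8.24 ± 0.10 in TG and 8.53 ± 0.09 in WT libraries (SD, n = 4 each), a difference of -0.29 (SE 0.10, 0.820-fold, exact permutation p = 0.0286, limma adjusted p = 0.353). The value was -0.33 without WT replicate 4 (limma adjusted p = 0.272). Its network partner Col4a4 read 9.81, 9.69, 9.36 and 9.89 in TG libraries, against 9.87, 10.14 and 9.91 in WT replicates 1 to 3 and 9.82 in WT replicate 4. The groups overlapped, since TG replicate 4 lay above WT replicates 1 and 4. The Col4a4 difference was -0.25 (SE 0.14, limma adjusted p = 0.586) for the brightest of its 3 features, while the other features differed by 0.05 and 0.29, so that their average stood at 0.03. Without WT replicate 4 the brightest feature differed by -0.29. Col4a5 differed by -0.20 (SE 0.14) and Col4a6 by -0.09 (SE 0.13).

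The type IV genes lie in head-to-head pairs on opposite strands. The promoter windows of Col4a1 and Col4a2 overlap by 78 bases on chromosome 8, and the starts of Col4a6 and Col4a5 lie 1342 bases apart on chromosome X. Within each array, Col4a1 minus Col4a2 was 1.02, 1.05, 0.89 and 0.87 in TG libraries, against 0.83, 0.72, 0.85 and 0.70 in WT libraries. This gap was wider in every TG library for the brightest of the 10 Col4a1 features. With the second brightest feature the gaps of the groups overlapped. That feature read 12.82 in TG replicate 3 and 12.80 in WT replicate 1, where Col4a2 read 11.99 and 11.93. The mean of Col4a3, Col4a4 and Col4a5 minus the mean of Col4a1 and Col4a2 was -3.58, -3.84, -3.78 and -3.62 in TG libraries, against -3.24, -3.36 and -3.18 in WT replicates 1 to 3 and -3.60 in WT replicate 4. These gaps were chosen after the values were seen and were not tested. Among the other basement membrane collagens, Col18a1, the precursor of endostatin, differed by -0.07 (SE 0.17) and Col7a1, the chain of anchoring fibrils, by 0.04 (SE 0.17), and Col15a1 had a mean below the array median.

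**Figure D3:**
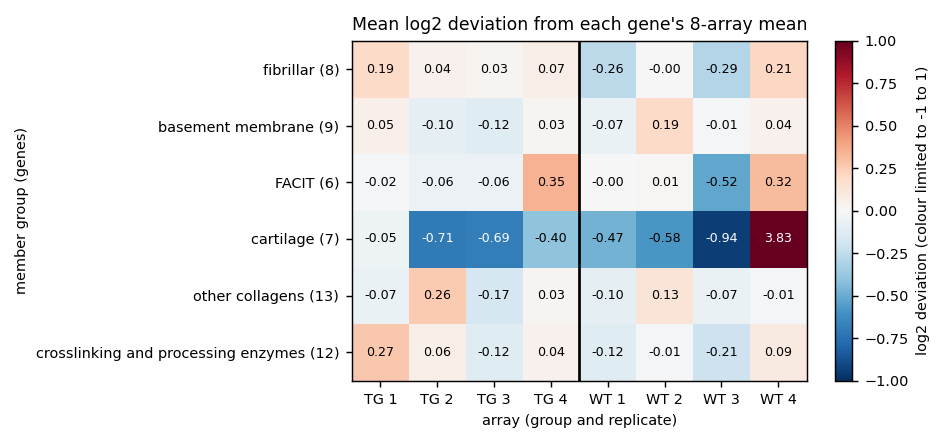
Mean log2 deviation of each member group (rows, with the number of genes) from each gene's mean over the 8 arrays, for every array (columns, TG left of WT). WT replicate 4 stands at 3.83 for the cartilage chains. For the fibrillar group it stands at 0.21, above all 4 TG arrays (0.03 to 0.19), while WT replicates 1 and 3 stand at -0.26 and -0.29. Within that group it is the highest array for 2 of 8 chains, Col5a3 and Col27a1, and lies below the TG mean for Col1a1, Col1a2 and Col3a1.

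Cartilage chains were set apart by 1 library. Col2a1, the main cartilage collagen, read 4.85, 5.42, 5.17 and 5.40 in TG libraries, against 3.42, 5.56 and 2.18 in WT replicates 1 to 3 and 13.97 in WT replicate 4. Col9a1, a cartilage FACIT chain, read 2.83, 2.49, 2.08 and 2.37 in TG libraries, against 2.88, 2.76 and 2.55 in WT replicates 1 to 3 and 9.24 in WT replicate 4. Its partner Col9a2 read 5.52, 4.93, 5.18 and 4.92 in TG libraries, against 5.66, 5.20 and 4.41 in WT replicates 1 to 3 and 9.29 in WT replicate 4. Col11a1, which nucleates cartilage fibrils, read 3.06, 2.61, 2.57 and 3.37 in TG libraries, against 2.84, 3.37 and 4.03 in WT replicates 1 to 3 and 7.19 in WT replicate 4. For each of these 4 genes WT replicate 4 was the highest of the 8 libraries, and the other 7 lay together below it. It was the highest for 6 of the 7 cartilage chains, all except Col10a1, a marker of hypertrophic cartilage, which read 4.34 in TG replicate 1 and 3.99 in WT replicate 4.

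The median difference of the cartilage chains was -1.0 with all arrays and 0.05 without WT replicate 4. With all arrays Col2a1 differed by -1.08 (SE 2.29), Col9a1 by -1.92 (SE 1.41), Col9a2 by -1.0 (SE 0.94), Col11a1 by -1.45 (SE 0.86), Col11a2 by -0.85 (SE 0.95) and Col9a3 by -0.42 (SE 0.47), with limma adjusted p between 0.599 and 0.907. Without that library Col2a1 stood at 1.49 (SE 0.71), Col9a1 at -0.29 (SE 0.19), Col9a2 at 0.05 (SE 0.31), Col11a1 at -0.51 (SE 0.32), Col11a2 at 0.08 (SE 0.60) and Col9a3 at 0.02 (SE 0.30). The second Col9a1 feature did not follow the first: it read 3.09 in WT replicate 4 and differed by 0.32. It read 2.35, 3.71, 2.91 and 3.23 in TG libraries and 2.23, 3.65 and 1.93 in WT replicates 1 to 3. The first feature was picked on its mean over all arrays, which holds its 9.24 in WT replicate 4. Over the remaining libraries the second feature was the brighter one. The Col9a1 value of -0.29 therefore still depends on the library left out, and cannot settle the direction of Col9a1. Of 12 cartilage markers outside the collagens, 0 passed and 9 were highest in WT replicate 4, and 5 had a mean below the array median. Their log2 summed signal was 8.79, 8.45, 9.11 and 8.48 in TG libraries, 8.70, 8.72 and 8.79 in WT replicates 1 to 3, and 12.19 in WT replicate 4. Among these markers Ucma read 11.03 and Snorc 9.98 in WT replicate 4, against at most 4.88 and 4.19 in any other library. Matn1, a matrilin of cartilage, was near the floor in every library at 2.07 to 2.78.

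**Figure D4:**
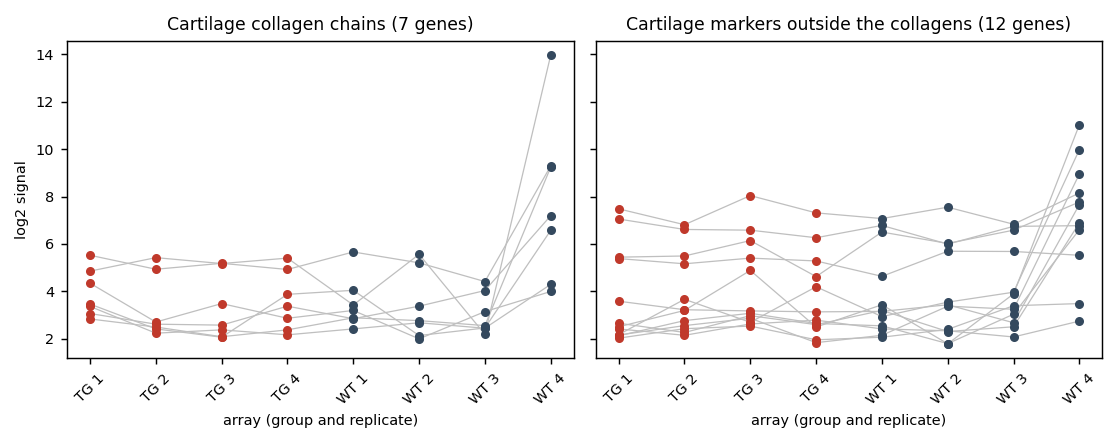
Log2 signal (vertical axis) of the 7 cartilage collagen chains (left) and 12 other cartilage markers (right) in each array, with red points for TG, dark points for WT and grey lines joining the same gene. WT replicate 4 rises to 13.97 for Col2a1 and to 11.03 for Ucma, far above the other 7 arrays.

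WT replicate 4 stood high in some of the other member groups and not in others. It lay above WT replicates 1 to 3 for 28.4% of all genes. Among members it did so for 6 of 8 fibrillar chains, 4 of 6 FACIT chains and 6 of 12 maturation genes. It did so for 5 of 13 other collagens (38.5%) and 2 of 9 basement membrane chains (22.2%). It lay below WT replicates 1 to 3 for 4 of 9 basement membrane chains, beside 5998 of all 20842 genes. Against the mean of the other WT libraries it was higher by 0.17 for Col1a1, 0.31 for Col1a2, 0.37 for Col3a1, 1.52 for Col5a3, 0.88 for Col12a1 and 0.38 for Pcolce. For Col4a3 it was lower, by a log2 difference of -0.18, and for Col4a6 by -0.35. The part of the cartilage, muscle and fat genes in these values was not tested.

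The other collagens had 8 of 13 higher and 5 of 13 lower means in TG libraries, a median difference of 0.03 (0.14 without WT replicate 4), and 0 passed. Type VI chains form beaded filaments around cells. Col6a1 read 12.97, 12.76, 12.61 and 12.93 in TG libraries, against 12.71, 12.78 and 12.72 in WT replicates 1 to 3 and 12.87 in WT replicate 4, a difference of 0.05 (SE 0.11, 95% interval -0.21 to 0.31), and 0.08 without WT replicate 4. Col6a2 read 10.52, 10.18, 9.95 and 10.19 in TG libraries, against 9.84, 10.14 and 10.19 in WT replicates 1 to 3 and 10.23 in WT replicate 4, a difference of 0.11 (SE 0.15, 95% interval -0.24 to 0.46), and 0.15 without WT replicate 4. For both chains the groups overlapped, with TG replicate 1 the highest and TG replicate 3 below most WT libraries. Col6a5 and Col6a6, with mean signals below the array median, differed by -0.66 (SE 0.29) and -0.48 (SE 0.31). Col6a5 read 2.37, 3.26, 2.32 and 2.07 in TG libraries, against 3.54, 3.44 and 2.78 in WT replicates 1 to 3 and 2.91 in WT replicate 4, and its second feature differed by -0.03. The Col6a5 difference was -0.75 without WT replicate 4.

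Col25a1 had the smallest p of the 55 members. This transmembrane collagen is known from neurons, where its shed part is found in amyloid plaques. Its brightest feature read 7.61, 8.40, 7.94 and 8.14 in TG libraries, against 7.32, 7.24 and 7.43 in WT replicates 1 to 3 and 7.59 in WT replicate 4. The groups were separate by 0.02 on the rounded values, between TG replicate 1 and WT replicate 4. The difference was 0.63 (SE 0.18, 1.55-fold, exact permutation p = 0.0286, limma adjusted p = 0.259), and 0.70 without WT replicate 4. The other 3 Col25a1 features, with mean signals of 4.07, 3.38 and 3.26, differed by 0.17, 0.08 and -0.52, so the average of all 4 differed by 0.09. Of the other transmembrane collagens Col23a1 differed by -0.15 (SE 0.13) and Col17a1, the hemidesmosome collagen of stratified epithelium, by 0.32 (SE 0.34). Col26a1, a secreted collagen with an EMI domain, differed by 0.43 (SE 0.23). The remaining 5 genes, Col6a4, Col8a1, Col8a2, Col13a1 and Col28a1, differed by less than their SE.

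Maturation genes had higher means in TG libraries for 8 of 12 members, with a median difference of 0.18 (0.20 without WT replicate 4, 0.11 without TG replicate 1), and 0 passed. Among the lysyl oxidases, Loxl2, which also crosslinks type IV collagen, read 11.27, 11.42, 11.27 and 11.59 in TG libraries, against 10.91, 11.01 and 10.97 in WT replicates 1 to 3 and 11.19 in WT replicate 4. Every TG library lay above every WT library, and WT replicate 4 was the nearest. The means were 11.39 ± 0.15 in TG and 11.02 ± 0.12 in WT libraries (SD, n = 4 each), a difference of 0.36 (SE 0.12, 1.29-fold, exact permutation p = 0.0286, limma adjusted p = 0.310). The same difference was 0.42 without WT replicate 4 (limma adjusted p = 0.226). All 3 Loxl2 features differed the same way, by 0.36 to 0.43. Loxl1, which acts on elastic fibres, read 11.13, 11.16, 11.04 and 11.11 in TG libraries, against 10.77, 10.91 and 10.66 in WT replicates 1 to 3 and 11.08 in WT replicate 4. WT replicate 4 lay above TG replicate 3 only, and the difference was 0.25 (SE 0.12, limma adjusted p = 0.482), and 0.33 without that library.

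Lox, the founding member of the family, differed by 0.20 (SE 0.24), a value set by TG replicate 1 at 7.81, since it was -0.04 without that library. Loxl4 differed by 0.61 (SE 0.39) at a mean below the array median, and its second feature by -0.22. Pcolce, the enhancer of procollagen C-propeptide removal, read 13.38, 13.39, 13.28 and 13.44 in TG libraries, against 12.99, 13.06 and 13.01 in WT replicates 1 to 3 and 13.40 in WT replicate 4. WT replicate 4 lay among the TG libraries and the other 3 WT libraries below all of them. The difference was 0.26 (SE 0.12, limma adjusted p = 0.496), and 0.35 without that library (SE 0.10, limma adjusted p = 0.221). Serpinh1 read 12.05, 11.98, 11.98 and 12.11 in TG libraries, against 11.82, 11.78 and 11.95 in WT replicates 1 to 3 and 11.93 in WT replicate 4. The groups were separate but close, with a difference of 0.16 (SE 0.10, 1.12-fold, exact permutation p = 0.0286, limma adjusted p = 0.610), and 0.18 without WT replicate 4. Plod2, which hydroxylates telopeptide lysines, differed by 0.32 (SE 0.15) with overlapping groups, and P3h1, a prolyl 3-hydroxylase of fibrillar collagens, by -0.11 (SE 0.15). Loxl3, Plod1 and Plod3 differed by less than their SE on their brightest feature, while the second Plod1 feature differed by -0.57 (SE 0.29), and P3h2 had an interval from -1.68 to 0.59.

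Of the 22 members with more than 1 feature, all features differed in the same direction for 13 and in both directions for 9. The 9 were Col4a4, Col4a6, Col8a2, Col9a1, Col15a1, Col18a1, Col25a1, Loxl4 and Plod1. The 13 were Col4a1, Col6a4, Col6a5, Col6a6, Col14a1, Col16a1, Col19a1, Col20a1, Col23a1, Lox, Loxl1, Loxl2 and P3h1. For Col6a4, Col19a1 and Col20a1 every feature differed by less than its SE. The share among all genes with several features was not computed, so the count cannot be read as agreement beyond chance.

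Genes that share the pathway but are not members were counted from lists chosen by role. Of 24 genes of procollagen folding, export and propeptide removal 0 passed, 19 had a higher and 5 a lower mean in TG libraries, with a median difference of 0.09 (0.16 without WT replicate 4). The smallest p belonged to Adamts2, which removes the N-propeptide, at 0.52 (SE 0.15, limma adjusted p = 0.256), and Sec23a, a coat protein of vesicles that leave the endoplasmic reticulum, at 0.51 (SE 0.16, limma adjusted p = 0.288). Adamts2 read 12.03, 11.97, 11.60 and 11.91 in TG libraries, against 11.15, 11.42 and 11.27 in WT replicates 1 to 3 and 11.60 in WT replicate 4. Sec23a read 7.14, 6.88, 7.19 and 7.19 in TG libraries, against 6.34, 6.58 and 6.47 in WT replicates 1 to 3 and 6.98 in WT replicate 4. Adamts2 differed by 0.60 and Sec23a by 0.64 without WT replicate 4. For both genes WT replicate 4 was the WT library that reached the TG range. Of 17 fibril-associated proteoglycans and glycoproteins 0 passed and 13 had a higher mean in TG libraries, with a median of 0.23 (0.33 without WT replicate 4). Bgn, which encodes the small leucine-rich proteoglycan biglycan, read 9.64, 9.81, 9.65 and 9.53 in TG libraries, against 9.14, 9.17 and 9.20 in WT replicates 1 to 3 and 9.41 in WT replicate 4, separate groups with a difference of 0.43 (SE 0.11, limma adjusted p = 0.230), and 0.49 without WT replicate 4. Its relative Dcn, decorin, read 11.73, 11.24, 11.15 and 11.21 in TG libraries, against 10.67, 10.58 and 10.54 in WT replicates 1 to 3 and 11.20 in WT replicate 4. WT replicate 4 lay within the TG range, and the difference was 0.59 (SE 0.19, limma adjusted p = 0.316), and 0.74 without that library.

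Collagen receptors were mixed, with 0 of 11 passing, 6 higher and 5 lower in mean. Itga1, the alpha subunit of a collagen-binding integrin, read 9.48, 9.68, 9.53 and 9.85 in TG libraries, against 9.06, 9.40 and 8.92 in WT replicates 1 to 3 and 9.25 in WT replicate 4, a difference of 0.48 (SE 0.14, limma adjusted p = 0.275), and 0.51 without WT replicate 4. Adgrg1, an adhesion receptor that binds type III collagen, read 8.51, 8.78, 8.71 and 8.79 in TG libraries, against 9.65, 9.33 and 9.55 in WT replicates 1 to 3 and 9.36 in WT replicate 4. The groups were separate in both cases, in opposite directions. Adgrg1 differed by -0.78 (SE 0.12, limma adjusted p = 0.0950), and by -0.81 without WT replicate 4.

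Markers of the cells that make or border this matrix moved with the groups to differing degrees. The log2 summed signal of 10 lung fibroblast markers was 13.89, 14.08, 13.99 and 14.16 in TG libraries, against 13.82, 13.83, 13.77 and 13.97 in WT libraries, with 8 of 10 higher in mean and 0 passing. For 10 smooth muscle and myofibroblast markers it was 15.05, 15.03, 15.07 and 15.14 in TG libraries, against 14.87, 14.94, 14.86 and 14.96 in WT libraries, with 9 of 10 higher in mean and 0 passing. For 10 lung epithelium markers it was 17.21 to 17.23 in TG libraries, against 17.28 to 17.33 in WT libraries, with 0 of 10 higher in mean and 0 passing. This sum is led by Sftpc and Scgb1a1, whose means of 15.98 and 15.94 lie at the top of the scale. The median difference of these markers was -0.29. All 4 TG values lay below the 4 WT values for 7 of 10, where 4.40% of all genes did so, and above for 0. For 8 endothelial markers the log2 summed signal was 14.89 to 15.17 in TG libraries and 14.89 to 15.22 in WT libraries, with 4 of 8 higher. For 6 mesothelium markers it was 13.40, 12.91, 12.24 and 12.82 in TG libraries, against 12.73, 12.85, 12.56 and 12.69 in WT libraries, with 5 of 6 higher in mean. For 8 bone markers, 5 of them with a mean below the array median, it was 9.37 to 9.76 in TG libraries and 9.07 to 9.35 in WT libraries, with 4 higher and 4 lower in mean and a median difference of 0.01. The brightest of them, Phex, averaged 9.38 in TG and 8.93 in WT libraries. For 10 cardiac muscle markers it was 13.49 to 14.12 in TG libraries and 14.23 to 14.71 in WT libraries, with 0 of 10 higher in mean. In whole lung, fewer cells of a type and less RNA per cell cannot be told apart, and the part of these cell types in the collagen values was not tested.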

How the data were processed

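RNA of 8 lung samples was measured on 1-colour Cy3 arrays. The deposited values are log2 signals, with the scale read from their range (1.51 to 15.99). They had the same distribution on every array, with sorted values differing by at most 0.0042. The submitters' processing notes name limma; for background correction and spot flags no statement was found in the labels or headers. Of 62976 features, 31425 were named and complete. Symbols came from the platform annotation and were updated through RefSeq accessions (GRCm38.p6). The feature with the highest mean stood for each of 20842 genes. The test was limma 3.58.1 in R 4.3.3 (group only, eBayes, two-sided, Benjamini-Hochberg over all genes, threshold 0.05), with an exact permutation test over 70 assignments. The permutation test was run on all 55 members without adjustment, and its p is printed for some of them. Among the genes described in full whose permutation p is not printed above, it was 0.171 for Col14a1 and 0.886 for Col2a1. The limma fit was tested on simulated data. The member rule reads symbols alone, but it and the lists were chosen with earlier results of these data known. Described with every value were the 3 members with the highest mean signal in each member group, those with separate groups, and the 2 with the smallest p (24 genes), plus Fgf10 and the 2 smallest p of each pathway list. Other values were chosen after they were seen. Standard errors are limma's moderated ones. Their number, 4 arrays per group, limits the precision. Alternatives were other feature summaries, scalings, filters, variance models, weights per array, a block on the replicate number and leaving out libraries. Figures used matplotlib 3.10.9.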

Additional observations from a re-analysis of the deposited data

Results flagged for a closer look

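A Dixon test of the highest and lowest library in each group of 4 was run at its 95% critical value. In 13 of 138 groups of values a library lay far from the other 3. For independent normal values about 1 in 20 would. The groups tested here were partly picked on their values and share genes, and the share over all genes was not computed. The count therefore cannot be read as an excess. In WT replicate 4, Col9a1 stood at 9.24 (next 2.88) and Col9a3 at 4.29 (next 2.67). In the same library the log2 summed signal was 14.10 for the cartilage chains (next 6.86), 12.19 for the other cartilage markers (next 8.79) and 12.99 for the skeletal muscle markers (next 10.04). In TG replicate 1, Col5a2 stood at 9.66 (next 9.29), Col5a3 at 5.29 (next 5.10) and Dcn at 11.73 (next 11.24), all above the other TG libraries, and Col23a1 at 6.61 (next 6.95), below them. In TG replicate 3, Col24a1 stood at 4.96 (next 4.48), above the others, and Col12a1 at 6.94 (next 7.43), below them. In WT replicate 3, Col22a1 stood at 4.02 (next 4.72) and Lox at 6.63 (next 6.97), both below the others.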

How the results depend on the processing

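Of genes past the threshold there were 0 with all features averaged, every feature on its own, other scalings or the replicate block. There were 38 with genes under the 25th percentile of signal left out, 288 with those under the 50th left out, 414 with the variance trend and robust estimation, and 3 when arrays were weighted; leaving out 1 library gave 0 to 1, the 1 without WT replicate 4. Among members 2 passed, with the variance trend, where 1.99% of all genes did: Col1a1 (adjusted p = 0.0444) and Loxl2 (0.0353). The basement membrane median was 0.11 with every feature on its own. The FACIT median was 0.38 with genes under the 50th percentile left out, which removes its 3 dim chains. The maturation median was 0.28 without both WT replicate 4 and TG replicate 3, and 0.11 (without TG replicate 1) to 0.23 with 1 library left out. The same ranges were -0.14 to -0.04 for basement membrane and 0.01 to 0.14 for other collagens, the far ends without WT replicate 4. With the replicate number as a block 0 genes passed and 0 members. Same-numbered libraries correlated by 0.02 to 0.11 in their deviations, and differently numbered ones by -0.15 to 0.07. The labels call the samples independent, so the main fit left them unpaired. These correlations cannot exclude a pairing.

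Direction under the alternatives was followed for 43 of the 55 members. Of these, 31 kept their direction under every alternative that gave them a value, all 19 for 28 of the 43. The other 15 were dim enough to fall to 1 or both of the filters on low signal. Col9a1 is among the 31, but on a feature picked with WT replicate 4 included, so its direction without that library is not settled. The other 12 of the 43 changed sign as follows. With all features averaged Col18a1 stood at 0.05 and Col4a4 at 0.03. Without WT replicate 4, and without both that library and TG replicate 3, Col11a2 stood at 0.08 and 0.37, Col2a1 at 1.49 and 1.5, Col9a2 at 0.05 and 0.03, and Col9a3 at 0.02 and 0.08. Leaving out single libraries, the values ran from -1.4 to 0.08 for Col11a2, -2.45 to 1.49 for Col2a1, -1.58 to 0.05 for Col9a2, -0.7 to 0.02 for Col9a3, -0.01 to 0.22 for Col27a1, -0.21 to 0.03 for Col18a1, -0.05 to 0.10 for Col4a2, -0.08 to 0.17 for Col7a1, -0.10 to 0.57 for Col10a1, -0.00 to 0.12 for Col6a1 and -0.04 to 0.33 for Lox. Col6a4, Col8a1, Col8a2, Col13a1, Col15a1, Col19a1, Col20a1, Col28a1, Loxl3, P3h2, Plod1 and Plod3 were not followed in this way. Some of them changed sign too. Without WT replicate 4 Col19a1 went from -0.06 to 0.10 and Loxl3 from -0.08 to 0.02. With all features averaged Plod1 went from 0.10 to -0.24. The cause of the sign changes was not tested. Signals near the floor or the top of the scale limit how well small differences can be read.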
